A study of Homo sapiens with 36 samples.

Results

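The transcripts of 40 human genes of the endoplasmic reticulum (ER) were followed in 2 cell lines given *Aconitum carmichaeli* Debeaux (ACD), a monkshood used in herbal medicine, as a hot water extract. The 40 genes were chosen by their known function, by a rule that used no counts but was written with earlier results of these data known, out of 60675 genes in the table, and each symbol matched a single Ensembl identifier. By role they were 9 chaperones and co-chaperones around BiP and GRP94, 2 lectin chaperones, 7 genes of disulfide formation, 9 genes of ER-associated degradation, the 3 stress sensors together with XBP1, 8 genes of translocation and early processing, and 1 gene of the coat that carries cargo out of the ER.

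Secreted and membrane proteins enter the ER through the SEC61 channel and are folded there by BiP (HSPA5), GRP94 (HSP90B1), the calnexin cycle and the protein disulfide isomerases. When unfolded proteins build up, BiP leaves the sensors IRE1 (ERN1), ATF6 and PERK (EIF2AK3), and the unfolded protein response (UPR) begins. IRE1 splices XBP1 mRNA, ATF6 is cut to a transcription factor, and both raise chaperone and degradation genes, while PERK phosphorylates eIF2alpha and so acts through ATF4 on genes of amino acid supply, which other kinases of eIF2alpha can also set in motion without ER stress.

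SW1783 is an astrocytoma line and HT29 a colorectal adenocarcinoma line, and the study asked in which of the lines, standing for brain and intestine, ACD acts more. The 36 libraries formed 12 groups of 3. Both lines had a batch A, in which wortmannin at 10 µM, a PI3K inhibitor used as positive control, was set beside its vehicle, and a batch B, in which ACD at 500, 100 and 20 µg/mL (high, medium and low dose) was set beside the vehicle labelled for batch B. Within each line, a batch A vehicle resembled the batch B vehicle of equal number most. A chi-square of the counts of such a pair, which is 1 per degree of freedom under sampling noise alone, lay between 1.53 and 1.64 for SW1783, where unequal numbers across the batches gave 2.04 to 3.12. For HT29 it lay between 1.46 and 1.54, where unequal numbers gave 4.00 to 17.68. The sources do not say whether they came from the same cultures, so the comparisons of the batches may share controls and are not taken as independent. All cells were treated for 24 h, the vehicle was labelled 0.1% DMSO, SW1783 was grown in L-15 medium without added CO2 and HT29 in DMEM under CO2, so that line and culture cannot be told apart. The labels do not say whether replicates were separate cultures, and the p-values measure the spread between these libraries, which may be technical.

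Total counts per library ran from 15941255 to 33866644, with medians of 22303972 in SW1783 and 22849798 in HT29. VIM, FN1 and SPARC marked SW1783, and EPCAM, KRT20 and CDH1 marked HT29, while of 5 astrocyte markers GFAP, S100B, AQP4 and ALDH1L1 stayed at or below 0.261 CPM (counts scaled to a common library total) in every SW1783 library and SLC1A3 had a median of 32.1 CPM. Mitochondrial ribosomal RNA took 0.93% ± 0.026 (SD, n = 3) of the counts in the SW1783 vehicle, 7.83% ± 0.199 at the medium dose and 5.93% ± 0.153 at the high dose, and 1.18% ± 0.04 and 11.96% ± 0.636 in the HT29 vehicle and high dose. Its part in the results was not tested, beyond fits without the mitochondrially encoded genes, which left each count of DEGs among the 40 genes at the value given below. In the HT29 high dose group, replicate 2 lay apart. It held the highest of the 3 values for 26 of the 40 genes and the lowest for the other 14. The main fitted results of the 40 genes that rest on it are also given without it. Overlaps, dose order and the amino acid branch were not recounted without it. Replicate 1 of the HT29 batch B vehicle also lay apart, with chi-squares of 15.12 and 17.3 per degree of freedom against replicates 2 and 3. Those 2 gave 4.04 against each other. With each library left out, the HT29 high dose count of DEGs among the 40 genes stayed at 0.

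Promoters of several of these genes carry the ER stress response element (ERSE), known as a site of ATF6 and XBP1, and its short form ERSE-II. The letters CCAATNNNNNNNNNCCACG (ERSE) and ATTGGNCCACG (ERSE-II) were searched on both strands of the RefSeq promoter windows, from 250 bases before to 50 bases after each gene's start, which were at hand for 36 of the 40 genes and not for PDIA3, DERL1, DERL3 and SEC24D. Matches are shown here for 5 genes that changed at the high dose in SW1783 and for CANX and CRELD2, which carried the element and did not pass the fold threshold there. Capitals mark the letters of the element, on the gene's strand, 5′ to 3′, in GRCh38.p14.
HSPA5 (chr9:125241381-125241419, minus strand): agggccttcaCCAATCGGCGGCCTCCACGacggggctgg
XBP1 (chr22:28800593-28800631, minus strand): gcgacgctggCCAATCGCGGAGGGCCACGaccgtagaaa
HERPUD1 (chr16:56932015-56932045, plus strand): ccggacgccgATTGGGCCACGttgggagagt
SDF2L1 (chr22:21642104-21642134, plus strand): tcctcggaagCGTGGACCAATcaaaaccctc
HYOU1 (chr11:119057264-119057403, minus strand): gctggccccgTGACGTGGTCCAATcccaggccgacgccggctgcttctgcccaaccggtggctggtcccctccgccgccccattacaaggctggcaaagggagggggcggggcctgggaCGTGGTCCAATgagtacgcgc
CANX (chr5:179698768-179698806, plus strand): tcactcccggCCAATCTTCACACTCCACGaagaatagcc
CRELD2 (chr22:49918544-49918582, plus strand): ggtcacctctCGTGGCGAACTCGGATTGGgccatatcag

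In SDF2L1, HYOU1 and CRELD2 the element lay on the opposite strand and is read here as its reverse complement, and HYOU1 held 2 copies of ERSE-II. The first capitals of HYOU1 also hold TGACGTGG, the UPR element (UPRE), which overlaps the ERSE-II match. The ERSE was found in 7 of 36 windows (19.4%), against 0.0806% of 27305 promoters, and the ERSE-II in 3 (8.33%), against 0.0549%. The UPRE was found in 1 window (2.78%), against 0.795% of all promoters. The letters TGATGNAAT, the C/EBP-ATF element of amino acid genes, were found in none of the 36 windows, against 1.02% of all promoters. A match describes the letters of the window and does not show a bound site.

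At the high dose in SW1783, the ER genes were upregulated as a broad but graded group. A gene was counted as a differentially expressed gene (DEG) when its adjusted p-value in DESeq2 was under 0.05 and its log2 fold change exceeded 0.585 in size, that is, 1.5-fold. Of the 40 genes, 16 were upregulated DEGs and none was downregulated, while 8.63% of 19494 genes tested were upregulated DEGs and 9.55% were downregulated DEGs. By the adjusted p-value alone 33 were higher and 2 lower, against 23.8% and 22.6% of all genes. The median log2 fold change of the 40 genes was 0.466, and that of the 11263 genes with normalized counts averaging 100 or more was 0.024. The largest change was that of HERPUD1, a membrane protein of the degradation machinery, at 6.41-fold. In bulk RNA of this kind, fewer cells of a kind and less RNA per cell cannot be told apart.

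**Figure D1:**
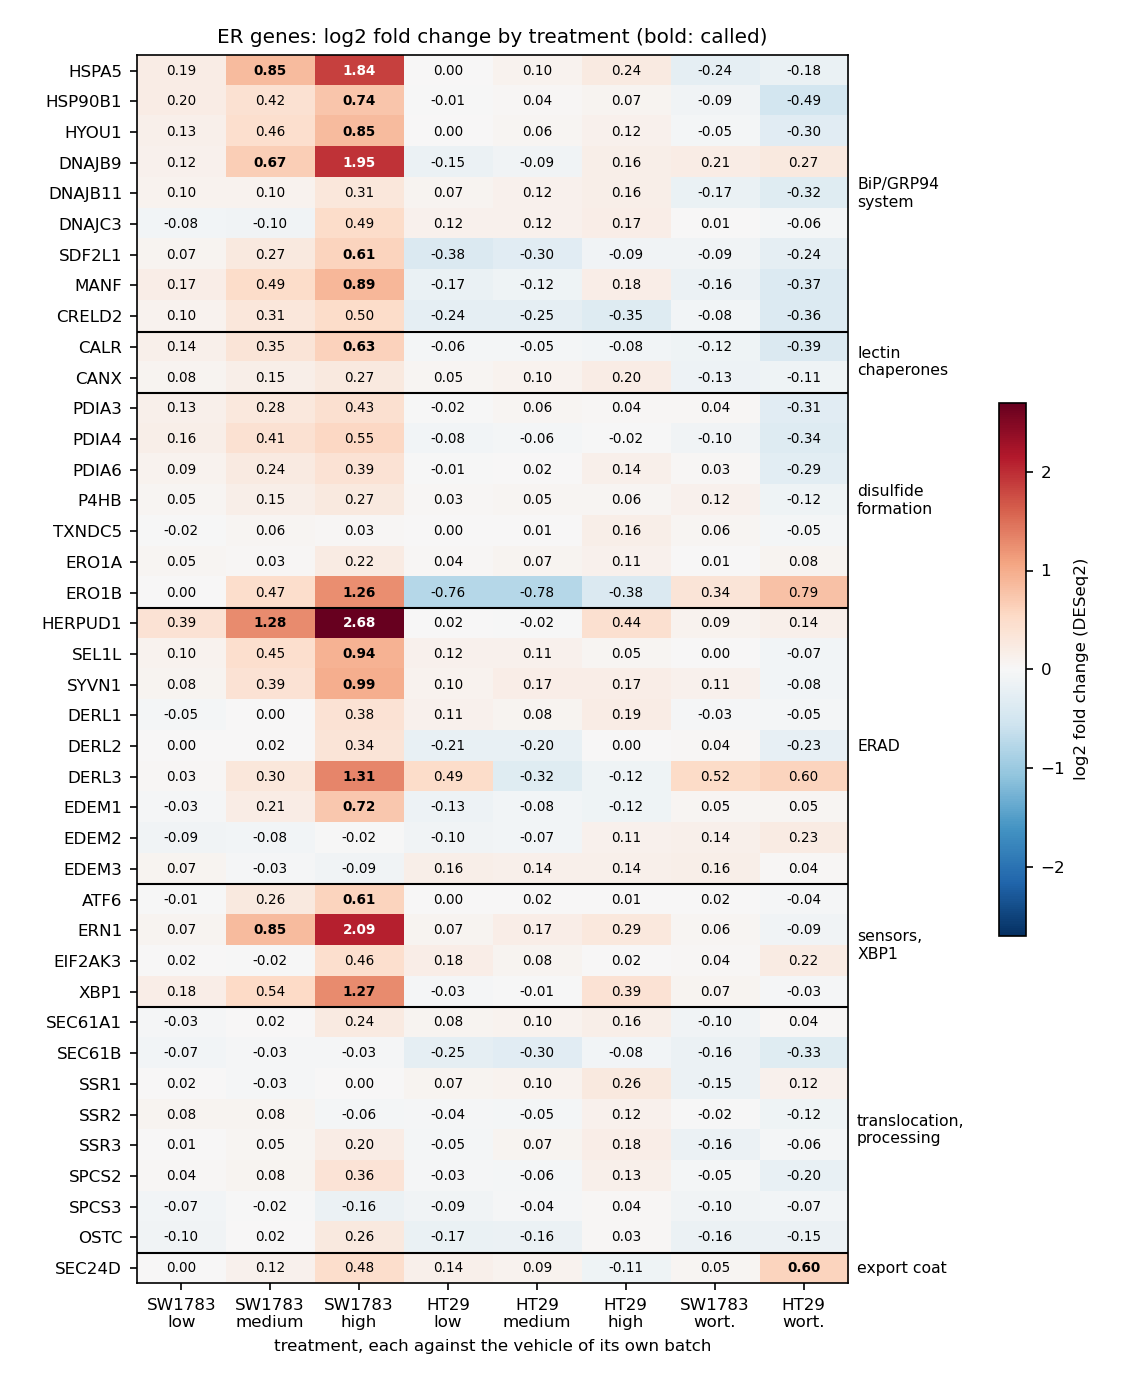
Log2 fold changes of the 40 ER genes (rows, grouped by role) in 8 treatment contrasts (columns), each treatment against the vehicle of its own line and batch with 3 libraries a group; colour gives the log2 fold change and bold type marks DEGs. The DEGs gather in the SW1783 high dose column, with 16 genes, and in the medium dose column, with 4, and the rows of translocation and processing hold none in any column.

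HSPA5 encodes BiP, the main Hsp70 of the ER and the protein that keeps the sensors silent. Its normalized counts in SW1783 were 74722, 73371 and 74844 in the vehicle, 83917, 85768 and 83958 at the low dose, 135401, 135584 and 131657 at the medium dose and 269720, 272070 and 257384 at the high dose. No library of a dose overlapped with a library of the next dose. The high dose stood 3.58-fold above the vehicle, with a log2 fold change of 1.84 ± 0.02 (SE, n = 3 per group; 95% interval 1.80 to 1.89), and its adjusted p-value in DESeq2 was so small that it was returned as 0. HSPA5 alone took 0.367% ± 0.003 (SD, n = 3) of all counts in the vehicle and 1.22% ± 0.04 at the high dose, and all 40 genes together took 1.78% ± 0.016 and 3.05% ± 0.05.

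The genes that work with BiP moved less than BiP itself, except DNAJB9. DNAJB9 (ERdj4), an ER J-domain co-chaperone of BiP, had 723, 682 and 671 normalized counts in the vehicle and 2661, 2689 and 2669 at the high dose. Its groups were far apart, with a log2 fold change of 1.95 ± 0.06 (adjusted p = 1.32e-248, DESeq2). HSP90B1, the ER form of Hsp90, went from 31897, 31659 and 30741 to 51923, 52984 and 52338, a log2 fold change of 0.74 ± 0.02 (adjusted p = 1.29e-218). HYOU1 (GRP170), the exchange factor of BiP, went from 9757, 9731 and 9800 to 17580, 17095 and 18170, a change of 0.85 ± 0.03 on the log2 scale (adjusted p = 5.07e-231). In each of these the lowest treated library lay above the highest vehicle library.

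MANF, a secreted ER stress factor, had 3394, 3184 and 3240 normalized counts in the vehicle and 6265, 6022 and 5877 at the high dose, and its log2 fold change was 0.89 ± 0.04 (adjusted p = 2.72e-96, DESeq2). SDF2L1, a partner of ER J-domain proteins, had 914, 1149 and 1193 in the vehicle and 1681, 1651 and 1639 at the high dose, and its log2 fold change was 0.61 ± 0.09 (adjusted p = 3.08e-11). The vehicle libraries of SDF2L1 spread more widely than those of the other chaperones, and without replicate 1 of the vehicle its log2 fold change was 0.50 and no longer past the threshold. The other 3 of the 9 genes passed the adjusted p-value but not the fold: CRELD2, a secreted ER stress protein, at 0.50 ± 0.05, DNAJC3 (p58IPK), a co-chaperone that also inhibits PERK, at 0.49 ± 0.04, and DNAJB11 (ERdj3), a co-chaperone that binds unfolded chains, at 0.31 ± 0.04.

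Of the lectin chaperones, which hold glycoproteins while they fold, the soluble CALR was a DEG and the membrane protein CANX was not. CALR had 33578, 33311 and 32129 normalized counts in the vehicle and 51081, 51760 and 50048 at the high dose, with a log2 fold change of 0.63 ± 0.02 (adjusted p = 7e-202, DESeq2). CANX had 48457, 48140 and 47010 in the vehicle and 57724, 57300 and 58730 at the high dose, with a log2 fold change of 0.27 ± 0.02. The groups of CANX did not overlap either, but the distance stayed within 1.5-fold.

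Among the 7 genes of disulfide formation only ERO1B, an oxidase that recharges the disulfide isomerases, was a DEG. ERO1B was among the rarest of the 40 genes, with 279, 266 and 258 normalized counts in the vehicle and 614, 668 and 636 at the high dose, a log2 fold change of 1.26 ± 0.09 (adjusted p = 6.58e-40, DESeq2). Its paralog ERO1A reached 0.22 ± 0.04. The isomerases were graded, with PDIA4 at 0.55 ± 0.02, PDIA3 at 0.43 ± 0.03, PDIA6 at 0.39 ± 0.02 and P4HB at 0.27 ± 0.02, all with an adjusted p under 0.05, while TXNDC5 stood at 0.03 ± 0.03 (adjusted p = 0.379). The widest change in this group was that of its least abundant member in SW1783.

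ER-associated degradation draws misfolded proteins back to the cytosol, and 5 of its 9 genes were DEGs. HERPUD1, which brings the ubiquitin ligase complex together, had 1661, 1573 and 1605 normalized counts in the vehicle, 2057, 2248 and 2028 at the low dose, 3883, 4016 and 3866 at the medium dose and 10324, 10460 and 10215 at the high dose. The libraries of its 4 groups did not overlap, and the high dose was at a log2 fold change of 2.68 ± 0.04 (95% interval 2.61 to 2.76), again with an adjusted p returned as 0 by DESeq2. SEL1L, the adaptor of that ligase, had 6227, 6007 and 5950 in the vehicle and 11660, 11659 and 11546 at the high dose (log2 fold change 0.94 ± 0.03). SYVN1 (HRD1), the ligase itself, had 1368, 1356 and 1364 and then 2541, 2715 and 2833 (0.99 ± 0.05). EDEM1, a lectin that passes misfolded glycoproteins to the ligase, had 2527, 2465 and 2444 and then 4157, 4131 and 3987 (0.72 ± 0.04), with all vehicle libraries below all treated ones in these 3 genes.

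The paralogs of the degradation genes parted. EDEM2 and EDEM3, relatives of EDEM1, had log2 fold changes of -0.02 ± 0.07 (adjusted p = 0.84, DESeq2) and -0.09 ± 0.04 (adjusted p = 0.0394). DERL1 and DERL2, membrane proteins of the retrotranslocation path, stood at 0.38 ± 0.04 and 0.34 ± 0.06. DERL3, their rarest relative, had 22.5, 24.5 and 20.8 normalized counts in the vehicle and 61.4, 57.7 and 50.5 at the high dose. Its log2 fold change of 1.31 ± 0.32 (adjusted p = 0.000117) rested on 20 to 28 raw counts per vehicle library and 53 to 64 per treated library, and its interval of 0.69 to 1.94 was the widest of the 40 genes.

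All 4 genes of the sensor group were higher, and 3 were DEGs. ERN1, which encodes IRE1, had 375, 428 and 388 normalized counts in the vehicle, 744, 691 and 721 at the medium dose and 1712, 1714 and 1645 at the high dose, a log2 fold change of 2.09 ± 0.07 (adjusted p = 1.01e-188, DESeq2). XBP1, whose mRNA IRE1 splices, had 2092, 1938 and 2096 in the vehicle, 3102, 2882 and 2935 at the medium dose and 4789, 4927 and 5058 at the high dose (1.27 ± 0.04, adjusted p = 7.72e-179). In neither gene did a group at the medium or high dose overlap with another of these 3 groups.

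ATF6 had 1673, 1675 and 1627 normalized counts in the vehicle and 2500, 2571 and 2535 at the high dose, a log2 fold change of 0.61 ± 0.04 (adjusted p = 2.23e-49, DESeq2), just past the threshold. EIF2AK3, which encodes PERK, had 568, 576 and 579 in the vehicle, 563, 566 and 568 at the medium dose and 845, 787 and 733 at the high dose. The high dose gave a log2 fold change of 0.46 ± 0.07 (adjusted p = 1.92e-09) that fell short of the fold threshold. Gene counts do not separate spliced from unspliced XBP1, nor cut from whole ATF6 protein.

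**Figure D2:**
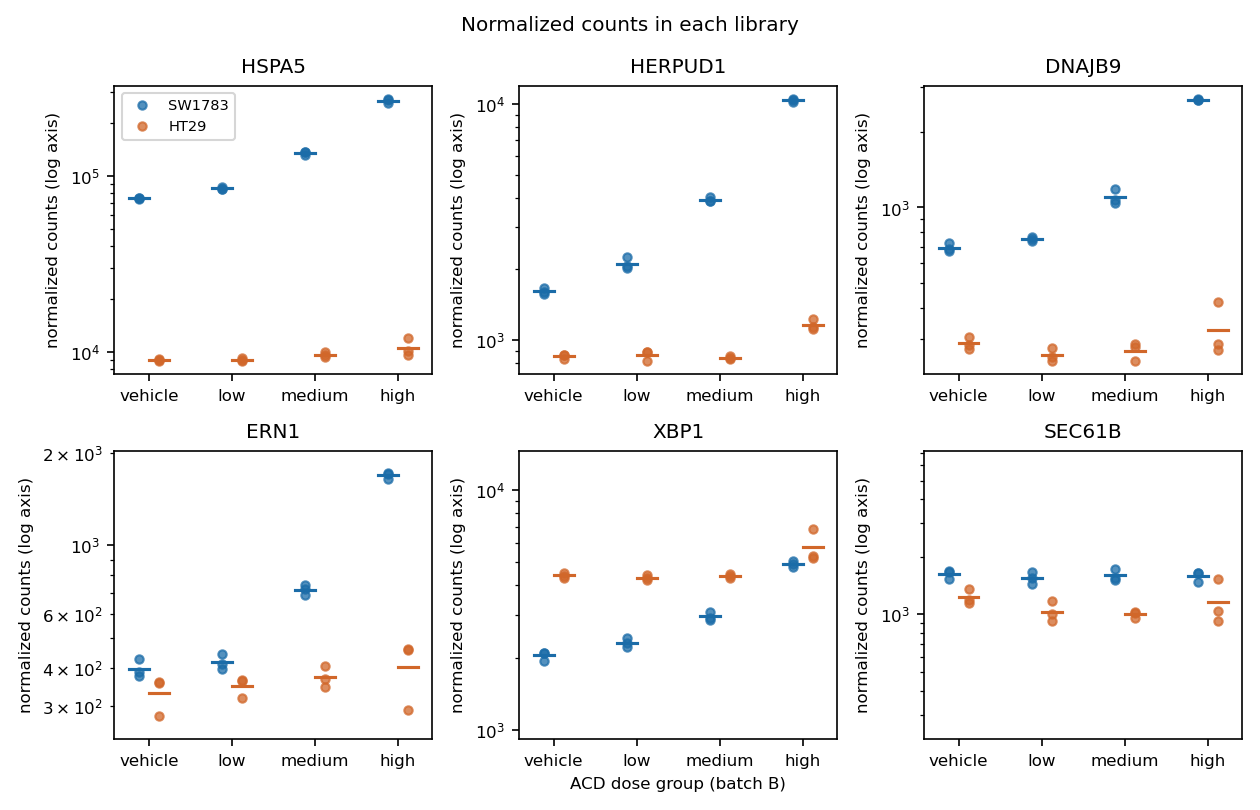
Normalized counts (log axis, scaled within each cell line) of HSPA5, HERPUD1, DNAJB9, ERN1, XBP1 and SEC61B in every library of batch B, by dose group; points are libraries, bars are group means, blue is SW1783 and orange is HT29. The SW1783 points of the first 5 genes climb to the high dose with little spread, from 1661, 1573 and 1605 to 10324, 10460 and 10215 in HERPUD1, while the group means of SEC61B lie between 1552 and 1626 in SW1783 and between 1003 and 1232 in HT29, and 1 HT29 point at the high dose, replicate 2, often lies off the other 2.

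None of the 8 genes of translocation and early processing was a DEG. Their log2 fold changes at the high dose ran from -0.16 for SPCS3 to 0.36 for SPCS2, both subunits of signal peptidase, with a median of 0.101. SEC61A1, the channel subunit of the translocon, was at 0.24 ± 0.03, and SEC61B, its small subunit, at -0.03 ± 0.07. SSR1, SSR2 and SSR3, subunits of the translocon-associated complex, were at 0.00 ± 0.03, -0.06 ± 0.07 and 0.20 ± 0.04, and OSTC, a subunit of the oligosaccharyltransferase, at 0.26 ± 0.06. SEC24D, a cargo adaptor of the COPII coat, had 2826, 2913 and 2816 normalized counts in the vehicle and 3952, 4033 and 3915 at the high dose, a log2 fold change of 0.48 ± 0.03 below the threshold.

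The threshold fell within a continuous series. Just inside it lay SDF2L1 and ATF6 at 0.61 and CALR at 0.63, and just outside lay PDIA4 at 0.55, CRELD2 at 0.50 and DNAJC3 at 0.49. The ERSE or ERSE-II letters were present in 8 of the 15 DEGs with a promoter window (CALR, ERO1B, HERPUD1, HSP90B1, HSPA5, HYOU1, SDF2L1 and XBP1) and in 2 of the 21 other genes with a window (CANX and CRELD2). Among the DEGs without these letters were DNAJB9 and ERN1, at log2 fold changes of 1.95 and 2.09. How the letters go with the calls was described only and was not tested.

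The response was graded with the dose in SW1783. The medium dose made 4 of the 40 genes upregulated DEGs and none downregulated, against 2.34% and 1.48% of 14111 genes tested, and all 4 were also DEGs at the high dose. They were HERPUD1 at a log2 fold change of 1.28 ± 0.04, HSPA5 at 0.85 ± 0.02, ERN1 at 0.85 ± 0.07 and DNAJB9 at 0.67 ± 0.06, with adjusted p-values in DESeq2 of 2.35e-26 or smaller. By the adjusted p-value alone 23 genes were higher and 1 lower at the medium dose, against 15% and 14.4% of all genes, and the lower one was DNAJC3 at -0.10 ± 0.04. XBP1, at 0.54 ± 0.05, lay just outside the threshold.

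At the low dose none of the 40 genes was a DEG by DESeq2 or by edgeR, and 0.0965% of 9324 genes were upregulated and 0.0215% downregulated DEGs. At an unadjusted p under 0.05 there were 15 genes, and 12 passed the adjusted p-value, all higher, where 2.05% of all genes were higher and 1.23% lower by that criterion. The largest was again HERPUD1 at 0.39 ± 0.04 (adjusted p = 1.1e-17), followed by HSP90B1 at 0.20 ± 0.02 and HSPA5 at 0.19 ± 0.02. These contrasts share the vehicle libraries, so their values are given side by side. Here and below, counts at an unadjusted p under 0.05 come without a share of all genes, which was not counted.

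The genes differed in the dose at which all libraries had left the vehicle range. HSP90B1 had 34917, 35813 and 37241 normalized counts at the low dose and 41967, 41843 and 42311 at the medium dose, and HYOU1 had 10490, 10860 and 10647 and then 13243, 13716 and 13351. CALR had 36411, 36373 and 36516 and then 42578, 41753 and 41884. In these 3 chaperones all low dose libraries lay above all vehicle libraries and all medium dose libraries above all low dose ones. The same order held for MANF, with 3440, 3702 and 3913 at the low and 4689, 4577 and 4509 at the medium dose, and for SEL1L, with 6550, 6564 and 6333 and then 8268, 8458 and 8191.

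Other genes first left the vehicle range at the medium dose. ATF6 had 1641, 1661 and 1652 normalized counts at the low dose, inside its vehicle range, and 1983, 1987 and 1975 at the medium dose, above it. ERN1 (443, 413 and 398 at the low dose), ERO1B (258, 294 and 249) and EDEM1 (2483, 2505 and 2300) overlapped with their vehicles at the low dose, and the medium dose libraries of ERO1B, at 364, 373 and 379, and of EDEM1, at 3002, 2870 and 2718, lay above them. DNAJB9, at 763, 753 and 736, SYVN1, at 1481, 1408 and 1422, and XBP1, at 2424, 2299 and 2209, lay above their vehicles by a small distance already at the low dose. EIF2AK3 and DERL3 left the vehicle range in all libraries only at the high dose, with 23.2, 23.3 and 36.7 counts of DERL3 at the medium dose. Counted over all 40 genes, the treated libraries lay wholly above the vehicle libraries in 18 genes at the low dose, 25 at the medium dose and 33 at the high dose, where 11.3%, 23.8% and 35.6% of 15282 genes did so.

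Between the medium and the high dose, 9 genes were upregulated DEGs, where 4.58% of 16501 genes were upregulated and 5.6% downregulated. HERPUD1 rose by a further 1.40 ± 0.03 on the log2 scale, DNAJB9 by 1.28 ± 0.05, ERN1 by 1.24 ± 0.07, DERL3 by 1.02 ± 0.31 and HSPA5 by 0.99 ± 0.02. ERO1B, XBP1 and SYVN1 followed at 0.78 ± 0.09, 0.73 ± 0.04 and 0.59 ± 0.05. The ninth was DNAJC3, which was no DEG against the vehicle: it had 4177, 4057 and 3972 normalized counts in the vehicle, 3913, 3817 and 3660 at the medium dose and 5657, 5884 and 5596 at the high dose, a step of 0.59 ± 0.04. The call of SYVN1 was lost without replicate 1 of the medium or replicate 3 of the high dose, and that of DNAJC3 without replicate 3 of the medium or replicate 2 of the high dose. By group means, 23 of the 40 genes were higher at every step from vehicle to high dose in SW1783 and 33 were highest at the high dose. This order was not counted over all genes, so these 2 counts have no share to stand beside.

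In HT29 the same 40 genes changed little. At the high dose none was a DEG by DESeq2 or by edgeR, where 1.29% of 16470 genes were upregulated and 1.63% downregulated DEGs, and 12 had an unadjusted p under 0.05. By the adjusted p-value alone 6 were higher and 1 lower, against 4% and 3.61% of all genes. The median log2 fold change of the 40 genes was 0.115, and that of the 10927 genes with normalized counts averaging 100 or more was 0.032. Without replicate 2 of the high dose, the median of the 40 genes was 0.045.

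HSPA5 in HT29 had 8841, 8922 and 9069 normalized counts in the vehicle, 9915, 9329 and 9531 at the medium dose and 10054, 11942 and 9616 at the high dose, a log2 fold change at the high dose of 0.24 ± 0.08 (adjusted p = 0.0433, DESeq2). HERPUD1 had 870, 832 and 868 in the vehicle and 1138, 1227 and 1121 at the high dose, a log2 fold change of 0.44 ± 0.07 (adjusted p = 3.1e-08). XBP1 had 4394, 4306 and 4519 in the vehicle and 5200, 6869 and 5326 at the high dose (0.39 ± 0.10, adjusted p = 0.00228). In all 3 genes the high dose libraries lay above the vehicle libraries without overlap, and the fitted changes stayed within 1.5-fold.

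The other genes higher by the adjusted p-value were SSR1 at 0.26 ± 0.07, CANX at 0.20 ± 0.06 and SEC61A1 at 0.16 ± 0.04. The lower gene was CRELD2, with 447, 421 and 448 normalized counts in the vehicle and 332, 391 and 321 at the high dose (-0.35 ± 0.10, adjusted p = 0.0164). ERN1 had 278, 358 and 360 in the vehicle and 457, 292 and 461 at the high dose, so that its groups overlapped through replicate 2. DNAJB9, with 308, 274 and 285 and then 288, 421 and 273, overlapped as well.

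The remaining genes called in SW1783 overlapped between vehicle and high dose in HT29, except EDEM1. Over all 40 genes, the HT29 high dose libraries lay wholly above the vehicle libraries in 11 and wholly below them in 2. The shares of 14858 genes were 11.1% and 11.1%. HSP90B1 had 14552, 14184 and 14357 normalized counts in the vehicle and 13992, 17635 and 13758 at the high dose, HYOU1 had 5469, 5873 and 5888 and then 6640, 5414 and 6633, and CALR had 14658, 12960 and 12290 and then 12408, 13231 and 12059. MANF had 850, 807 and 743 and then 755, 1219 and 762, and SDF2L1 had 451, 337 and 307 and then 254, 513 and 267. In HSP90B1, MANF and SDF2L1, 1 high dose library, replicate 2, lay above all vehicles and the other 2 lay below the middle vehicle. In HYOU1 replicate 2 was instead the one below the vehicles.

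Of the degradation genes in HT29, SEL1L had 1217, 1390 and 1547 normalized counts in the vehicle and 1549, 1215 and 1527 at the high dose, and SYVN1 had 1579, 1761 and 1731 and then 2239, 1422 and 2033. EDEM1 had 1011, 1032 and 1095 and then 993, 927 and 962, a log2 fold change of -0.12 ± 0.08 (adjusted p = 0.423, DESeq2) with all high dose libraries below the vehicles. DERL3, at 10.6, 12.4 and 18.1 and then 19.6, 5.13 and 11.9, and ERO1B, at 14.6, 16.8 and 10.6 and then 8.73, 8.55 and 14.2, were rare in HT29, and the SE of their log2 fold changes was 0.56 and 0.48. The sensors ATF6, with 1365, 1348 and 1376 and then 1426, 1238 and 1426, and EIF2AK3, with 453, 457 and 480 and then 482, 453 and 467, overlapped between the groups, as did SEC24D, with 773, 846 and 880 and then 826, 680 and 806.

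Replicate 2 of this group stood against the mean of replicates 1 and 3 at ratios from 0.64 in ERN1 to 1.97 in SDF2L1, over the 38 genes with a group mean of 100 or more. Without it, there was still no DEG among the 40 genes, and 10 genes were higher and 5 lower by the adjusted p-value. ERN1 then stood at 0.46 ± 0.13 (adjusted p = 0.00368, DESeq2), SYVN1 at 0.33 ± 0.07 (adjusted p = 7.59e-05) and HERPUD1 at 0.40 ± 0.08, while HSPA5 was at 0.14 ± 0.05 and XBP1 at 0.26 ± 0.05. SDF2L1 was at -0.48 ± 0.16 and CRELD2 at -0.43 ± 0.11. The 16 genes that were DEGs in SW1783 had log2 fold changes in HT29 of -0.38 to 0.44 with all libraries, and the upper bound of the 95% interval lay above a 1.5-fold increase in 3 of them, XBP1, ERN1 and DERL3. The intervals of the rare genes DERL3, from -1.22 to 0.98, and ERO1B, from -1.32 to 0.57, also reached past a 1.5-fold decrease.

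At the medium and low doses in HT29 no gene was a DEG by DESeq2 or edgeR and none passed the adjusted p-value. The counts at an unadjusted p under 0.05 were 2 and 3. Over all genes, 0.44% were upregulated and 0.409% downregulated at the medium dose, and 0.145% and 0.176% at the low dose. From the medium to the high dose there was no DEG either, against 0.387% and 0.312% of 14742 genes, with 5 genes at an unadjusted p under 0.05 and HERPUD1 (0.45 ± 0.07) and XBP1 (0.40 ± 0.10) past the adjusted p-value. Without replicate 2 of the high dose, HERPUD1 stood at 0.42 ± 0.07 and XBP1 at 0.26 ± 0.05. By group means 10 of the 40 genes rose at every step of the dose and 25 were highest at the high dose, again without a count over all genes.

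The difference between the lines was tested as an interaction, that is, as the log2 fold change in SW1783 minus that in HT29. At the high dose 16 genes differed past the threshold, all with the larger change in SW1783, against 7.09% and 8.05% of 17743 genes with a larger or smaller value in SW1783. HERPUD1 differed by 2.20 ± 0.07 (95% interval 2.07 to 2.33, adjusted p = 3.1e-229, DESeq2), DNAJB9 by 1.76 ± 0.14, ERN1 by 1.75 ± 0.18 and HSPA5 by 1.57 ± 0.07. ERO1B, at 1.57 ± 0.35, rested on 5 to 23 raw counts per HT29 library. XBP1 and SEL1L differed by 0.84 ± 0.10 each, CRELD2 by 0.82 ± 0.09, EDEM1 by 0.80 ± 0.08, SYVN1 by 0.77 ± 0.15, HYOU1 by 0.69 ± 0.08, CALR by 0.67 ± 0.08, MANF by 0.67 ± 0.16 and HSP90B1 by 0.62 ± 0.09.

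Of these 16 genes, 15 were also DEGs in SW1783 alone, and the other was CRELD2, which stood on opposite sides of 0 in the lines, at 0.50 and -0.35. ATF6 was a DEG in SW1783, but its line difference of 0.55 ± 0.06 was within the threshold. The calls of SDF2L1 (0.67 ± 0.27, adjusted p = 0.0446, DESeq2) and DERL3 (1.37 ± 0.55, adjusted p = 0.0448) were the weakest and were lost in 9 and 11 of their 18 alternative fits. Without replicate 2 of the HT29 high dose the count was 15, without DERL3, and it was 13 without replicate 1 or without replicate 3 of that group. The genes of translocation showed no such difference past the threshold, with values from -0.30 to 0.19.

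**Figure D3:**
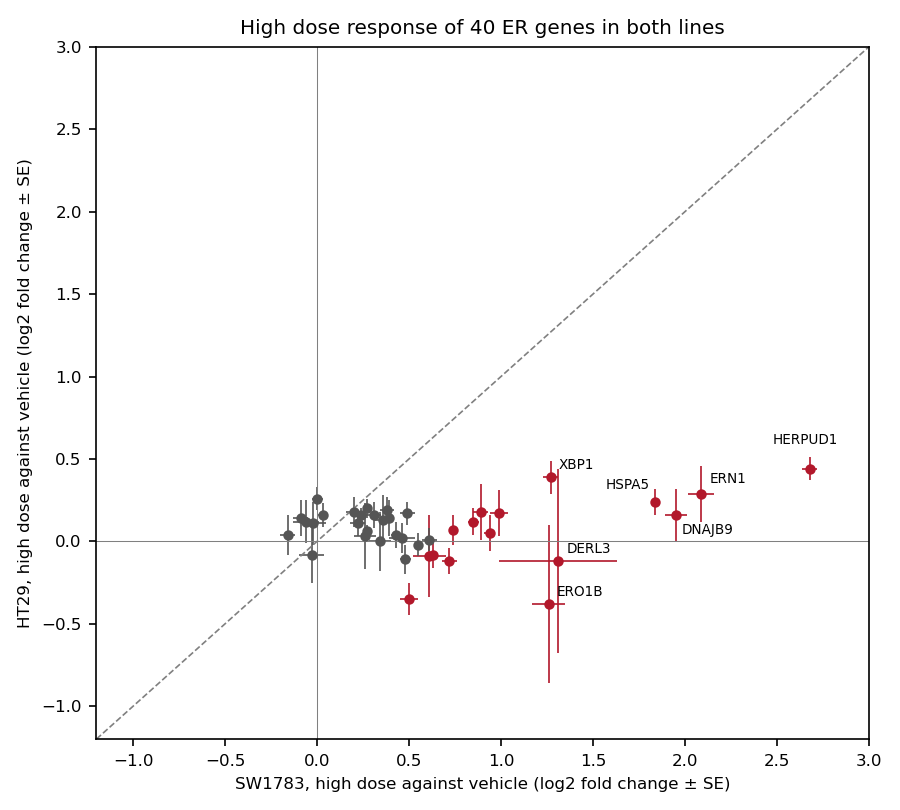
Log2 fold change of each of the 40 ER genes at the high dose against vehicle in SW1783 (x axis) and in HT29 (y axis), with SE as bars and the line of equal change dashed; red marks the 16 genes whose line difference passed the threshold. The red genes lie below the dashed line, from HERPUD1 at 2.68 in SW1783 and 0.44 in HT29 to CRELD2 at 0.50 and -0.35.

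At the medium dose the difference between the lines passed the threshold in 5 genes, against 1.8% and 1.53% of 15072 genes. HERPUD1 differed by 1.28 ± 0.07, ERO1B by 1.26 ± 0.38, HSPA5 by 0.73 ± 0.07, DNAJB9 by 0.73 ± 0.14 and ERN1 by 0.67 ± 0.18, all with the larger value in SW1783. The call of ERO1B was lost without replicate 2 of the HT29 vehicle or medium dose.

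The lines already differed before treatment. Between the vehicles of batch B, 29 of the 40 genes were higher in SW1783 and 3 lower past the threshold, against 29.5% and 24.8% of 22462 genes. All 9 genes around BiP and GRP94 were higher in SW1783, from HYOU1 at a log2 difference of 1.01 ± 0.05 to HSPA5 at 3.30 ± 0.04, which is 9.83-fold. ERO1B differed most, by 4.47 ± 0.26, followed after HSPA5 by SEL1L at 2.37 ± 0.08, MANF at 2.28 ± 0.07 and SEC24D at 2.01 ± 0.07. XBP1 was lower in SW1783 by -0.87 ± 0.06, and so were DERL1 and SPCS2, each by -0.95 ± 0.06. ERN1, ATF6 and EIF2AK3 were higher in SW1783 by 0.50 ± 0.13, 0.53 ± 0.06 and 0.55 ± 0.09, within the threshold.

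As levels per length, in CPM per kilobase of merged exons, CALR at 582 ± 14.9 and HSPA5 at 562 ± 4.31 (SD, n = 3) were the highest of the 40 genes in the SW1783 vehicle, and the libraries of CALR (565 to 591) and HSPA5 (557 to 565) met at their edge. Merged exons join every annotated exon of a gene and are not the length of its transcripts. They span 2802 bases in CALR, 6530 in HSPA5, 13764 in CANX and 20691 in EIF2AK3. The order of genes on this scale depends on that length and is only rough. PDIA4 followed at 211 ± 1.25 and CANX at 172 ± 3.11. In the HT29 vehicle CALR was highest at 201 ± 14.9, then PDIA4 at 107 ± 2.17 and PDIA6 at 85.0 ± 1.71, while HSPA5 stood at 57.9 ± 1.70. The sensors were at the low end in both lines, with ERN1 at 1.02 ± 0.0749 and 0.734 ± 0.116, EIF2AK3 at 1.37 ± 0.0141 and 0.947 ± 0.0412, and ATF6 at 5.74 ± 0.111 and 4.04 ± 0.0757 in SW1783 and HT29.

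Under wortmannin SEC24D in HT29 was the only DEG among the 40 genes. In HT29 only 38 of them were tested, and the rare ERO1B and DERL3 were not. ERO1B had 3, 16 and 8 raw counts in the HT29 vehicle of batch A and 15, 14 and 11 with wortmannin. DERL3 had 15, 17 and 11 and then 28, 14 and 17, so their changes there are uncertain. In SW1783 the log2 fold change was above 0 in 21 genes and below 0 in 19, with a median of 0.007. In HT29 it was above 0 in 12 and below 0 in 28, with a median of -0.085 over the 38 tested. The median of all genes tested was -0.002 in SW1783 and -0.006 in HT29. In SW1783 none was a DEG by DESeq2 or edgeR, where 1.74% of 14530 genes were upregulated and 0.97% downregulated, and 21 genes had an unadjusted p under 0.05. By the adjusted p-value alone 5 were higher and 14 lower, against 13.2% and 19.2% of all genes. HSPA5 went from 86453, 85347 and 86115 normalized counts in the vehicle of batch A to 71601, 72759 and 74209, the largest decrease among the 40 genes at -0.24 ± 0.02 (adjusted p = 5.54e-47, DESeq2), and the groups did not overlap. ERO1B at 0.34 ± 0.11 and DNAJB9 at 0.21 ± 0.07 were higher.

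In HT29, wortmannin made SEC24D an upregulated DEG and no gene a downregulated DEG, against 1.97% and 0.767% of 13162 genes. SEC24D had 663, 733 and 800 normalized counts in the vehicle of batch A and 1098, 1110 and 1139 with wortmannin, a log2 fold change of 0.60 ± 0.09 (adjusted p = 4.45e-10, DESeq2) that stayed apart in every library but fell to 0.54, within the threshold, without replicate 1 of that vehicle. In SW1783 the gene had 3380, 3291 and 3196 and then 3333, 3516 and 3387, which overlapped. By the adjusted p-value alone 1 gene was higher and 13 lower in HT29, against 8.05% and 11.6% of all genes. The lower genes included HSP90B1, from 13947, 13018 and 13436 to 9553, 9552 and 9700 (-0.49 ± 0.05, adjusted p = 9.33e-21), CALR at -0.39 ± 0.07, PDIA4 at -0.34 ± 0.05 and HSPA5 at -0.18 ± 0.05.

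The difference between the lines under wortmannin passed the threshold in none of the 40 genes by DESeq2 or edgeR, against 0.887% and 2.47% of 13645 genes, with 18 genes at an unadjusted p under 0.05. SEC24D came nearest at -0.57 ± 0.08 (adjusted p = 1.23e-10, DESeq2). ERO1B, rare in HT29, was at -0.40 ± 0.39 (adjusted p = 0.588) and HSP90B1 at 0.37 ± 0.04 (adjusted p = 5.27e-20).

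Other ER genes and the amino acid branch were set beside the 40 genes. Of 71 other ER genes, 9 were upregulated and 1 downregulated in SW1783 at the high dose, with a median log2 fold change of 0.154. Over all genes tested the shares were 8.63% and 9.55%. The largest changes were those of SELENOS, a selenoprotein of the degradation complex, at 1.02 ± 0.06, CRELD1 at 1.00 ± 0.12, SERP1, a protein of the translocon, at 0.86 ± 0.05, and SEC23B, a COPII coat subunit, at 0.85 ± 0.04. The downregulated gene was CREB3L1, a transcription factor of the ER membrane, at -0.81 ± 0.04 in SW1783. It was also the only DEG of this list at the high dose in HT29, at -0.86 ± 0.17. There, 1.29% of all genes tested were upregulated and 1.63% downregulated DEGs.

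The amino acid branch, 43 genes of ATF4 and its feedback, amino acid synthesis and transport, and aminoacyl-tRNA synthetases, changed more and in both lines. In SW1783 at the high dose 35 of 42 tested were upregulated DEGs with a median log2 fold change of 1.453 over the list, and none was downregulated. Over all genes tested, 8.63% were upregulated and 9.55% downregulated DEGs. The largest were ATF3 at 4.73 ± 0.16, TRIB3 at 4.31 ± 0.06, DDIT3 (CHOP) at 3.91 ± 0.06 and NUPR1 at 3.43 ± 0.10. ATF4 itself, which had 2092, 2024 and 2060 normalized counts in the vehicle and 8623, 8069 and 8446 at the high dose, was at 2.03 ± 0.04. At the medium dose 32 of these genes were DEGs where 4 of the 40 ER genes were, and at the low dose 2 and none. All were upregulated, as were 2.34% of all genes tested at the medium dose and 0.0965% at the low dose.

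In HT29 at the high dose, where none of the 40 ER genes was a DEG, 24 of 42 genes of the amino acid branch were, with a median of 0.689. Of all genes tested there, 1.29% were upregulated and 1.63% downregulated DEGs. CHAC1, a glutathione-degrading enzyme, was at 2.99 ± 0.17, ASNS, which makes asparagine, at 2.08 ± 0.14, DDIT4 at 1.83 ± 0.08 and PSAT1, of serine synthesis, at 1.45 ± 0.08. At the medium and low doses of HT29 the branch had 1 DEG and none, where 0.44% and 0.145% of all genes tested were upregulated DEGs. Under wortmannin it had no DEG in SW1783 and 2 upregulated and 2 downregulated DEGs in HT29. Over all genes tested in HT29 under wortmannin, 1.97% were upregulated and 0.767% downregulated DEGs. The TGATGNAAT letters were found in 2 of 36 promoter windows of this list (5.56%), and the ERSE and ERSE-II in none.

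**Figure D4:**
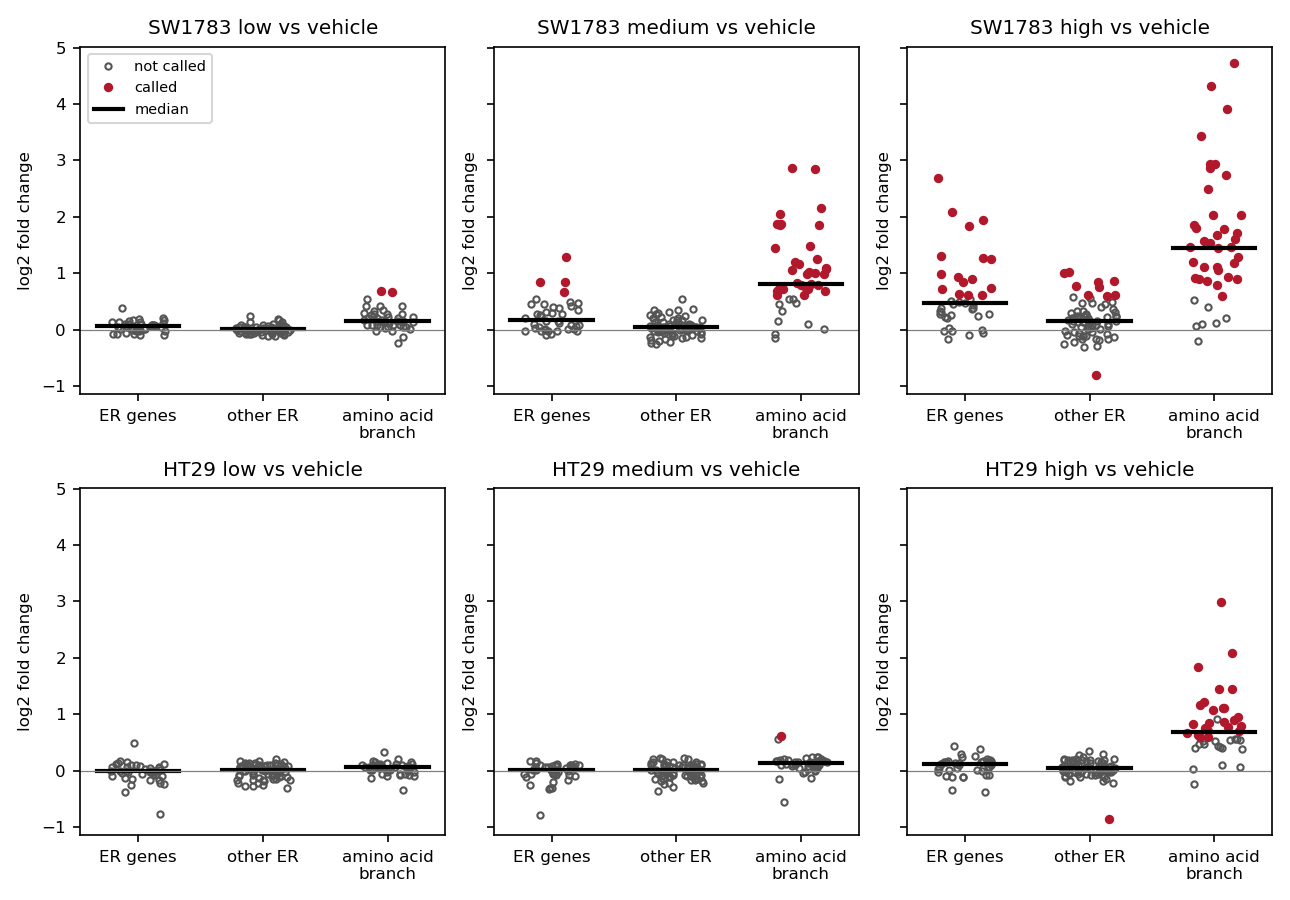
Log2 fold changes against vehicle of the 40 ER genes, 71 other ER genes and 43 genes of the amino acid branch at 3 ACD doses in SW1783 (top) and HT29 (bottom); each point is a gene, red points are DEGs and bars are list medians. In SW1783 the medians at the high dose are 0.466, 0.154 and 1.453, and in HT29 they are 0.115, 0.037 and 0.689, so that the amino acid branch stands highest in both lines.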

How the data were processed

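The authors prepared directional mRNA libraries, sequenced paired ends on an MGI instrument, trimmed reads with Trim Galore, used STAR for alignment to GRCh38 and RSEM for gene quantification. The deposited table holds RSEM expected counts per gene for 36 libraries, not normalized. How RSEM treated strand is not given in the sources used here, and it divides reads shared by similar or overlapping genes by a model. HSP90B1, DNAJB11, DNAJC3, CALR, CANX, PDIA6, TXNDC5, HERPUD1, SYVN1, EDEM2, ATF6, SSR1 and OSTC overlap another annotated gene on their strand, so their counts are less certain. Others, such as ERN1, EIF2AK3, ERO1B and PDIA3, overlap a gene on the opposite strand. Their counts are also less certain if strand was not used.

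Expected counts were rounded, since 8.84% of values were not whole, and tested two-sided over all genes by the DESeq2 Wald test (DESeq2 1.42.0, R 4.3.3) with Benjamini-Hochberg adjustment. Each line had a fit of its 12 batch B libraries and a fit of its 6 batch A libraries, and each treatment was set against the vehicle of its own batch. Line differences were interaction terms. A gene was called at an adjusted p under 0.05 and more than 1.5-fold. Normalized counts were scaled within a fit and are not comparable between lines or batches. Depth limits rare genes: a count of 0 would allow up to 3 counts, or 0.089 to 0.188 CPM, counting error only. Only the fit of the SW1783 high dose against vehicle was run on simulated counts with known changes. The HT29, batch A and line difference fits were not simulated.

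All 40 genes were accounted for. Library values were given for genes called in any of the 8 treatment contrasts against vehicle, for the sensors and XBP1, and for HSPA5, HSP90B1 and HERPUD1. In the other lists, up to 4 called genes per list and line with the largest change and a mean of 100 or more were named. Values of CANX, DNAJC3, CRELD2 and ATF4, and any further genes by name, were chosen after they were seen. The genes and lists were chosen with earlier results of these data known. Alternatives were edgeR 4.0.16, TMM scaling, no mitochondrial genes, a mean count of 10 or more, only the groups compared, a replicate block and each library left out. Equal replicate numbers showed no steady correlation of treated with vehicle libraries, but did pair the vehicles of batches A and B. Treated and vehicle libraries of unequal number were not correlated, so pairing is not excluded. Pairs of vehicles were compared by chi-square over genes with 20 or more counts in the pair.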

Additional observations from a re-analysis of the deposited data

Results flagged for a closer look

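The response to ACD differed between the lines, by the test of the interaction in DESeq2, in 16 of the 40 ER genes at the high dose and in 5 at the medium dose, and this is what singled them out. The values are log2 fold changes in SW1783 minus those in HT29. At the high dose they were 2.20 for HERPUD1, 1.76 for DNAJB9, 1.75 for ERN1, 1.57 for HSPA5 and for ERO1B, 1.37 for DERL3, 0.84 for XBP1 and for SEL1L, 0.82 for CRELD2, 0.80 for EDEM1, 0.77 for SYVN1, 0.69 for HYOU1, 0.67 for CALR, for MANF and for SDF2L1, and 0.62 for HSP90B1. At the medium dose they were 1.28 for HERPUD1, 1.26 for ERO1B, 0.73 for HSPA5 and for DNAJB9, and 0.67 for ERN1. All 3 high dose libraries of SW1783 lay above all 3 of its vehicles in each of these genes, as they did in 35.6% of 15282 genes. The flagged genes were picked with these same libraries, so this position adds no support. Mitochondrial ribosomal RNA, at 5.93% of the counts in SW1783 and 11.96% in HT29 at the high dose, was above the vehicle level in both lines, and its part in the difference was not tested.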

How the results depend on the processing

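Over 14 counts of DEGs among the 40 genes, 179 of 183 alternative values lay within 1.5 times the value given. The 4 others left out a library under wortmannin: the count in HT29 was 0 or 1 with each library left out, and the count for the line difference was 0 or 1, the gene being lower. With each library left out the high dose count in SW1783 was 15 to 16, its step from the medium dose 8 to 9, the line difference 13 to 15 at the high dose and 4 to 6 at the medium dose, and the difference between vehicles 31. With edgeR these counts were 16, 9, 16, 6 and 32. Between treated libraries and the vehicles of their batch, equal replicate numbers showed no steady correlation. Unequal numbers were not correlated, so pairing is not excluded. For HT29, correlations of deviations over all groups lay between -0.521 and 0.384 in batch B and -0.057 and 0.14 in batch A. For SW1783 they lay between -0.127 and 0.244 and between 0.013 and 0.055. Equal numbers of the SW1783 medium and high doses gave 0.102, 0.058 and 0.244, and of the low and medium doses 0.165, 0.126 and 0.228. With the replicate block, the step from the medium to the high dose in SW1783 kept 9 DEGs. The numbers did pair the vehicles of batches A and B, at 0.524 to 0.814 in HT29 and 0.241 to 0.307 in SW1783. These vehicles are not compared with each other. A fit with the replicate block gave 16 DEGs at the high dose in SW1783 and 0 in HT29. Of 1121 alternative log2 fold changes for the genes called, 1080 kept the call, 41 fell below a threshold and 0 changed sign. Scaling by TMM or without mitochondrial genes moved the median of all genes by less than 0.1 on the log2 scale. Depth limits DERL3 and ERO1B most.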
